A study of Mus musculus with 20 samples.

Results

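Cohesin is the ring-shaped protein complex that holds sister chromatids together. The 8 genes considered here encode its subunits Smc1a, Smc1b, Smc3, Rec8, Rad21 and Stag3, its release factor Wapl and its centromeric protector Sgol2a. They were taken by symbol from 2 deposited tables of mouse oocyte mRNA, 1 of ribosome-bound mRNA and 1 of total RNA, which list 8114 genes between them. Of the 8, 6 were listed in both tables, and Rec8 and Stag3 were listed in neither, so the meiotic kleisin and the meiotic Stag subunit were not analysed here. Only genes past a floor of expression appear in the tables (each reaches at least 10.3 in 1 library), so a gene that is not listed is not shown to be absent.

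A cohesin ring consists of an Smc1 and an Smc3 arm, closed by a kleisin (Rad21 in somatic cells, Rec8 in meiosis) that binds a Stag subunit. Germ cells add meiotic versions, among them Smc1b, and the cohesion that an oocyte carries into its first division was laid down before birth. Wapl opens rings and takes cohesin off chromosome arms, while shugoshin 2, the product of Sgol2a, brings the phosphatase PP2A to centromeres, where it shields Rec8 from separase. Fully grown oocytes no longer transcribe, so the proteins made during this division come from stored mRNA.

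The libraries came from 3-week-old C57BL/6 females that were Zp3-Cre+ RiboTag, injected with 5 IU of PMSG, a gonadotropin that stimulates follicle growth. Oocytes were taken 44 h later, freed of cumulus cells by pipetting, and kept in prophase I arrest with 1 µM cilostamide, a phosphodiesterase 3 inhibitor. After transfer to medium without it, pools of 200 oocytes were collected at 0 h (prophase I), 2 h, 4 h and 6 h (early, middle and late prometaphase I) and 8 h (metaphase I). Ribosome-bound mRNA, recovered through tagged ribosomes that Cre switches on under the oocyte promoter of Zp3, and total RNA were sequenced, with 2 libraries for each of the 10 groups. All groups share genotype, hormone and inhibitor, and the labels do not say whether replicates came from separate mice, so p-values measure the spread between these libraries only. No untreated or non-Cre samples enter the comparisons.

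Values are CPM, reads relative to the size of a library, multiplied by a factor of each library and called scaled CPM below. The inferred reads on the listed genes were 27571236 to 51714900 per library, and reads elsewhere are not in this count. They are shares of a library, so fewer cells of a type and less RNA per cell cannot be told apart, and the 2 tables were scaled separately. Replicates correlated at Pearson r of 0.949 to 0.974 across genes. Of the oocyte markers, 11 of 11 were listed on ribosomes and 10 of 11 in total RNA, where Figla was not listed. Their summed value on ribosomes was 51603 and 42015 at 0 h, and 26298 to 32512 at 2 h, 4 h and 6 h. At 8 h it was 22585 and 25509, while in total RNA it lay between 13976 and 16336 in all libraries. The oocyte markers did not all fall on ribosomes. Between 0 h and 8 h the mean of Dazl went from 158 to 585 and that of Ddx4 from 30.2 to 34.0. The means of the other oocyte markers were lower at 8 h than at 0 h. Of 17 granulosa and cumulus markers, 4 were listed on ribosomes (Cyp19a1, Fshr, Serpine2 and Nr5a2), and Foxl2, Amh and Cyp11a1 were among the 13 that were not. The summed value of these 4 on ribosomes was 199 and 207 at 0 h, 244 to 256 at 2 h, 302 to 315 at 4 h, 446 to 451 at 6 h and 524 and 529 at 8 h. In total RNA 6 of the 17 were listed, with sums of 324 and 389 at 0 h and 428 and 550 at 8 h. Of 13 blood, stroma and endothelium markers, 2 were listed (Pecam1 and Tek), with sums of 155 and 189 on ribosomes at 0 h and 106 and 162 at 8 h. The granulosa sum on ribosomes moved with time in the same direction as the cohesin rises below. Most of its difference between 0 h and 8 h lay in Serpine2, whose mean went from 111 to 369. Means went from 34.0 to 85.5 for Cyp19a1, 48.4 to 57.3 for Nr5a2 and 9.76 to 14.8 for Fshr. The part of the oocyte and granulosa sums in the results below was not tested.

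Stored oocyte mRNAs are known to be controlled through short motifs near the 3′ end, the cytoplasmic polyadenylation element and the poly(A) signal, so these were looked up for the 6 listed genes. The last 100 bases of the annotated 3′ UTR were searched on the transcript strand for TTTTAT and TTTTAAT (elements; TTTTAAT can overlap AATAAA) and for AATAAA and ATTAAA (signals), in the GENCODE vM21 annotation of GRCm38/mm10. Sites are shown for Sgol2a, Wapl and Rad21, the genes of the 6 with the highest estimates on ribosomes at 8 h, with the motif in capitals, 5′ to 3′ on the transcript strand.
Sgol2a element, chr1:58025825-58025854, plus strand: acttatgtatcaTTTTATcattaattctct
Sgol2a signal, chr1:58025864-58025893, plus strand: ttttaaatacaaATTAAAaaaagttttaaa
Wapl element, chr14:34747827-34747856, plus strand: atccaatcctatTTTTATtttatacagtat
Wapl signal, chr14:34747948-34747977, plus strand: aattttaactcaAATAAAattgatacttta
Rad21 signal, chr15:51962240-51962269, minus strand: aaggtgagtttctgagcAATAAAagatttg

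Of the 6 genes, only Sgol2a had TTTTAT in its last 100 bases, 57 bases from the annotated end, and none had TTTTAAT. Among 7462 listed genes with that much 3′ UTR, 16.4% had TTTTAT and 6.22% had TTTTAAT. The 2 overlapping TTTTAT matches of Wapl lay farther out, 139 and 134 bases from its end, where a window of 200 bases would hold TTTTAT in 25.8% of 6946 genes. Smc1a, Rad21 and Wapl carried AATAAA (66.9% of genes) and Sgol2a carried ATTAAA (22.2%). Neither signal was found in this window of Smc3 and Smc1b. A match is a description of these letters, and no match says only that the letters are not in the window.

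At 8 h, metaphase I, the mRNAs of Sgol2a, Wapl, Rad21 and Smc3 were a larger share of ribosome-bound mRNA than in arrested oocytes, Smc1b was a smaller share and Smc1a did not pass the test. The log2 changes on ribosomes were 2.72 for Sgol2a, 1.70 for Wapl, 1.07 for Rad21, 0.97 for Smc3 and -0.91 for Smc1b. Thus 4 of 6 rose and 1 of 6 fell, where 20.2% of the 7543 genes tested rose and 21.8% fell. The fall of Smc1b shrank to -0.41 without the 0 h library of replicate 1. It was -0.50 without the 8 h library of replicate 2. With only the groups compared in the limma fit, Smc1b did not pass (adjusted p = 0.0659). The median change was 1.02 for the 6 genes and -0.06 for all genes. The 6 genes were chosen with earlier results of these data known. These shares and medians, and those below, are therefore a description only. In total RNA none of the 6 passed at 8 h, where 3.97% of 7917 genes were called, and 2 (Smc3 and Sgol2a) had an unadjusted p under 0.05 in limma, as did 18.7% of all genes. Tests were limma on log2(value + 1) over all genes of a table, with Benjamini-Hochberg adjustment and a threshold of 0.05. Fold changes on this scale understate those of low genes.

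**Figure D1:**
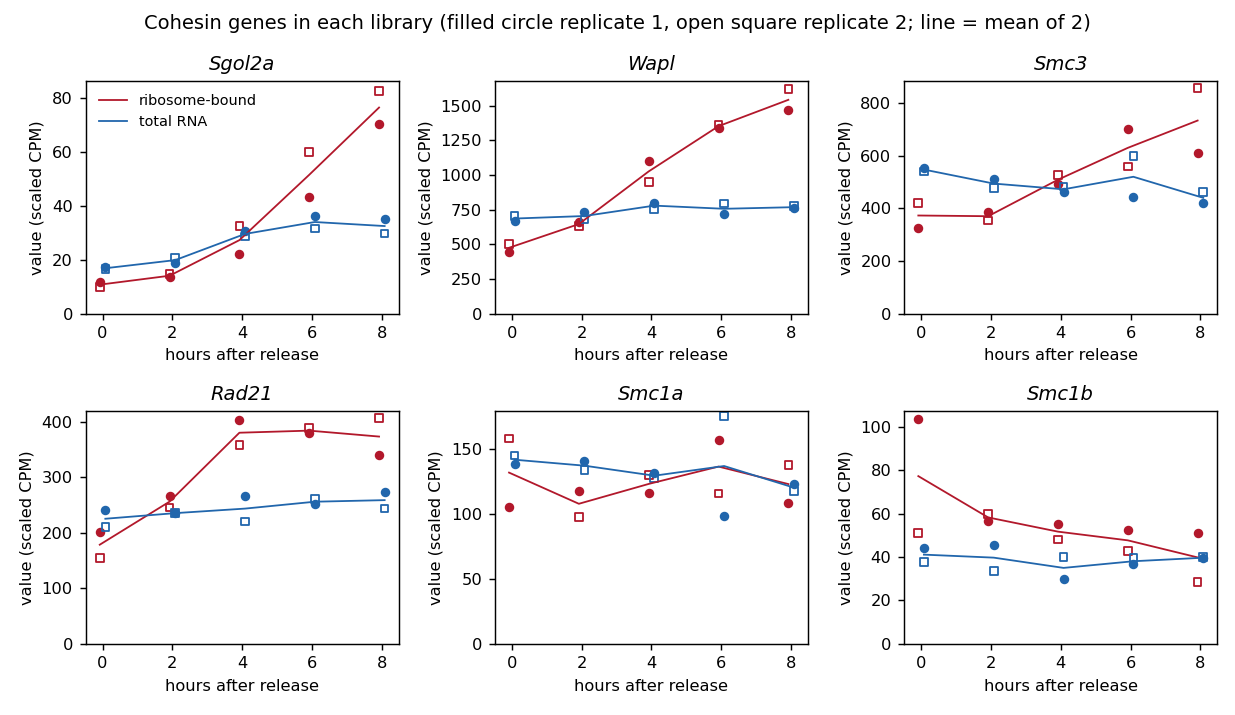
Scaled CPM of each gene (y axis, linear from 0) against hours after release (x axis), for ribosome-bound mRNA and total RNA, with replicate 1 as filled circles, replicate 2 as open squares and the mean of 2 as a line. The ribosome-bound values of Sgol2a, Wapl, Rad21 and Smc3 at 8 h lie above both 0 h libraries, and Smc1b starts from 2 unlike libraries, 103 and 51.1. How many of all genes separate in this way was not counted, so separation here and in the text below is a description only.

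Sgol2a (ENSMUSG00000026039.9, chromosome 1, 57995971 to 58025899, plus strand, protein coding) encodes the protector. On ribosomes it stood at 11.7 and 9.79 scaled CPM at 0 h, 13.5 and 14.6 at 2 h, 21.9 and 32.5 at 4 h, 43.1 and 59.9 at 6 h, and 70.2 and 82.6 at 8 h. Every 4 h, 6 h and 8 h library lay above every 0 h library, and each pair lay above the pair before it. Sgol2a rose by a log2 of 1.25 ± 0.31 (SE) at 4 h (adjusted p = 0.010), 2.15 ± 0.31 at 6 h (6.24e-05) and 2.72 ± 0.31 at 8 h (2.7e-06), the last a 6.60-fold change on this scale. It ranked 8th of 7543 genes by its rise at 8 h. The 4 h call was lost without the 4 h library of replicate 2 (0.97, adjusted p = 0.0778) and when only the groups compared entered the fit (adjusted p = 0.0925).

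In total RNA Sgol2a stood at 17.1 and 16.5 at 0 h, 18.9 and 20.8 at 2 h, 30.5 and 28.6 at 4 h, 36.3 and 31.6 at 6 h, and 35.2 and 29.7 at 8 h. All 6 libraries from 4 h on were above both 0 h libraries, yet the change did not pass the test over all genes (0.90 ± 0.28 at 8 h, adjusted p = 0.0781; 95% interval 0.32 to 1.49). Sgol2a was 116th of 7917 genes by this change, so it is the gene of the 6 with the highest total RNA estimate at 8 h.

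Reads of Sgol2a cannot be fully told apart from those of Kctd18, a gene on the opposite strand that shares 2455 exon bases with it, since whether the libraries kept strand is not given in the sources used here. Of the 4890 stretches of 50 bases in the longest Sgol2a transcript, 2336 (47.8%) also occur in Kctd18, as the reverse complement, and 131 (2.68%) in its relative Sgo2b. Kctd18 was at 6.66 ± 0.156 (SD, n = 2) on ribosomes at 0 h and at 17.6 ± 6.51 at 8 h, which did not pass in limma (1.23 ± 0.52, adjusted p = 0.0667). In total RNA Kctd18 rose, from 9.95 ± 6.15 (SD, n = 2) to 28.6 ± 10.3 (1.51 in limma, adjusted p = 0.0457). The share of these reads in the Sgol2a values was not tested.

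Wapl (ENSMUSG00000041408.16, chromosome 14, 34673928 to 34747983, plus strand) encodes the release factor. Its ribosome-bound values were 445 and 504 at 0 h, 662 and 630 at 2 h, 1100 and 952 at 4 h, 1343 and 1362 at 6 h, and 1466 and 1620 at 8 h. The pairs of the 5 times did not overlap, in rising order. Wapl rose by a log2 of 1.11 ± 0.13 at 4 h (adjusted p = 2.78e-05), 1.51 ± 0.13 at 6 h (3.74e-07) and 1.70 ± 0.13 at 8 h (4.18e-08). At 2 h the change of 0.45 ± 0.13 did not pass (adjusted p = 0.0940). In total RNA Wapl ran from 668 and 704 at 0 h to 762 and 775 at 8 h, with 678 to 802 between, and the 8 h change of 0.16 ± 0.11 did not pass (adjusted p = 0.466).

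Rad21 (ENSMUSG00000022314.9, chromosome 15, 51962240 to 51991747, minus strand) encodes the somatic kleisin. On ribosomes it stood at 203 and 155 at 0 h, 267 and 246 at 2 h, 403 and 358 at 4 h, 379 and 390 at 6 h, and 341 and 407 at 8 h. Its values had separated from 0 h by 2 h and the 4 h, 6 h and 8 h pairs overlapped one another. Rad21 rose by 1.10 ± 0.16 at 4 h (adjusted p = 0.000204), 1.11 ± 0.16 at 6 h (7.15e-05) and 1.07 ± 0.16 at 8 h (5.66e-05), and the 2 h change of 0.53 ± 0.16 did not pass (adjusted p = 0.104), although it did without the 0 h library of replicate 1 (0.72, adjusted p = 0.0389). In total RNA Rad21 stood at 241 and 210 at 0 h and 274 and 244 at 8 h, which overlap (0.20 ± 0.15, adjusted p = 0.493).

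Smc3 (ENSMUSG00000024974.10, chromosome 19, 53600398 to 53645833, plus strand) encodes the arm that every cohesin ring shares. Its ribosome-bound values were 325 and 419 at 0 h, 385 and 354 at 2 h, 491 and 525 at 4 h, 699.7 and 559 at 6 h, and 609 and 856 at 8 h. The 2 h pair lay inside the 0 h pair, and all libraries from 4 h on lay above it. Smc3 rose by 0.76 ± 0.17 at 6 h (adjusted p = 0.00384) and 0.97 ± 0.17 at 8 h (0.000291), while the 0.46 ± 0.17 at 4 h did not pass (adjusted p = 0.0847). The 6 h call was lost without the 6 h library of replicate 1 (0.60, adjusted p = 0.0682) and when trends with transcript length and GC were removed (0.44, adjusted p = 0.0634), which also brought the 8 h rise down to 0.53 (adjusted p = 0.0199). The 4 h change passed without the 0 h library of replicate 2 (0.64, adjusted p = 0.0355).

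In total RNA Smc3 was at 554 and 539 at 0 h, 510 and 477 at 2 h, 461 and 483 at 4 h, 441 and 598 at 6 h, and 418 and 460 at 8 h. The 8 h pair lay below the 0 h pair, but the change of -0.32 ± 0.14 did not pass (adjusted p = 0.229). Smc3 thus had estimates of opposite sign on ribosomes and in total RNA at 8 h.

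Neither partner arm of Smc3 passed the test upward. Smc1a (ENSMUSG00000041133.11, chromosome X, 152016428 to 152062694, plus strand), the somatic arm, stood at 105 and 158 on ribosomes at 0 h and at 108 and 137 at 8 h, with all libraries between 97.5 and 158. Its 8 h change was -0.08 ± 0.22 in limma (adjusted p = 0.794). The 95% interval of -0.54 to 0.38 takes in changes in either direction, so a lack of change was not shown for Smc1a. In total RNA all Smc1a libraries lay between 98.4 and 175.

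Smc1b (ENSMUSG00000022432.6, chromosome 15, 85064689 to 85131964, minus strand) encodes the meiotic arm. On ribosomes it was at 103 and 51.1 at 0 h, 56.7 and 59.8 at 2 h, 55.3 and 48.1 at 4 h, 52.7 and 42.7 at 6 h, and 51.0 and 28.6 at 8 h. Both 8 h libraries lay below both 0 h libraries, at 51.0 against 51.1 for the closest pair, and the 0 h replicates differed from each other more than any later pair. Smc1b fell by 0.91 ± 0.31 at 8 h (adjusted p = 0.0260). Its 6 h change passed only once length and GC trends were removed (-1.04, adjusted p = 0.0250) or the 0 h library of replicate 2 was left out (-1.11, 0.0179), and its 4 h change only with the latter (-0.99, 0.0459). The 8 h call was lost without the 0 h library of replicate 1 (-0.41, adjusted p = 0.341), without the 8 h library of replicate 2 (-0.50, adjusted p = 0.306) and with only the groups compared in the fit (adjusted p = 0.0659), and removing trends with length and GC made the change -1.45. In total RNA the 10 Smc1b libraries lay between 29.9 and 45.8, with a change of -0.05 ± 0.25 at 8 h (adjusted p = 0.952).

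Over time, 0 of 6 genes passed on ribosomes at 2 h (1.47% of all genes), and 2 of the 6, Rad21 and Wapl, had an unadjusted p under 0.05 in limma (17.2%). At 4 h 3 of 6 rose (9.16% of all genes), and at 6 h 4 of 6 rose (14.6%). The number of all genes called depended on single libraries: with each left out it ran from 15 to 171 at 2 h (111 with all), 461 to 1120 at 4 h (1186), 1267 to 2183 at 6 h (2108) and 2159 to 3249 at 8 h (3173). It moved by over 1.5 times without replicate 1 of 0 h or either library of 2 h at 2 h, replicate 1 of 4 h at 4 h, and either library of 6 h at 6 h. At 8 h no single library moved it that far. Between neighbouring times the only call was the rise of Wapl from 2 h to 4 h (0.66, adjusted p = 0.0236), 1 of 6 where 0.703% of all genes rose. That call was lost without any of 5 libraries (both of 2 h, replicate 1 of 4 h, both of 6 h), with adjusted p-values from 0.0520 to 0.387, and with the length and GC correction (0.52, adjusted p = 0.0661). None of the 6 passed from 4 h to 6 h (0.0663% of all genes) or from 6 h to 8 h (0.689%). With an unadjusted p under 0.05 in limma, there were 2 of 6 from 4 h to 6 h, Sgol2a and Wapl (10.9% of all genes), and 0 of 6 from 6 h to 8 h (13%). The change of each gene against 0 h is plotted by time.

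**Figure D2:**
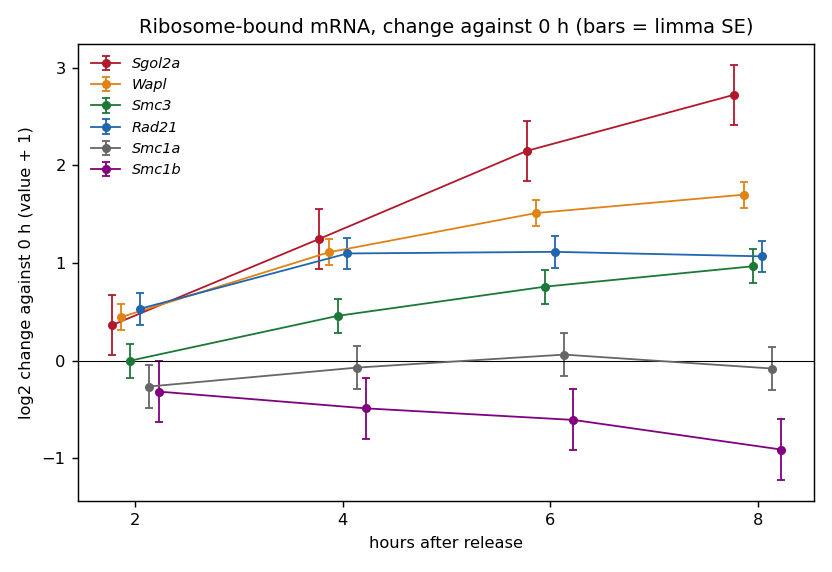
Log2 change of ribosome-bound mRNA against 0 h (y axis) at 2, 4, 6 and 8 h after release (x axis), on the log2(value + 1) scale, with limma standard errors as bars. Sgol2a and Wapl are higher at each successive time, Rad21 stays near 1.1 from 4 h on, and Smc1b reaches -0.91 at 8 h.

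None of the 6 passed in total RNA at any time. The share of all genes called was 0% at 2 h and at 4 h, and 0.202% at 6 h. With an unadjusted p under 0.05 in limma, there were 0 of 6 at 2 h (2.85% of all genes) and 1 of 6, Sgol2a, at 4 h (4.38%) and at 6 h (7.74%).

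The interaction of RNA kind and time asks how far a gene changed on ribosomes beyond its change in total RNA, over the 7346 genes in both tables. At 8 h 4 of 6 genes passed, all upward, where 11.6% of all genes rose and 9.43% fell: Sgol2a by 1.82 ± 0.40 (adjusted p = 0.00188), Wapl by 1.54 ± 0.17 (5.31e-07), Smc3 by 1.28 ± 0.23 (0.000330) and Rad21 by 0.87 ± 0.21 (0.00511). Smc1b was at -0.87 ± 0.42 (adjusted p = 0.149) and Smc1a at 0.15 ± 0.32 (0.773), and neither passed. The change of Smc1b passed without the 0 h library of replicate 2 or the 8 h library of replicate 1 on ribosomes, and with the length and GC correction, at values of -1.27 to -1.37. The median was 1.07 for the 6 genes and -0.03 for all genes.

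**Figure D3:**
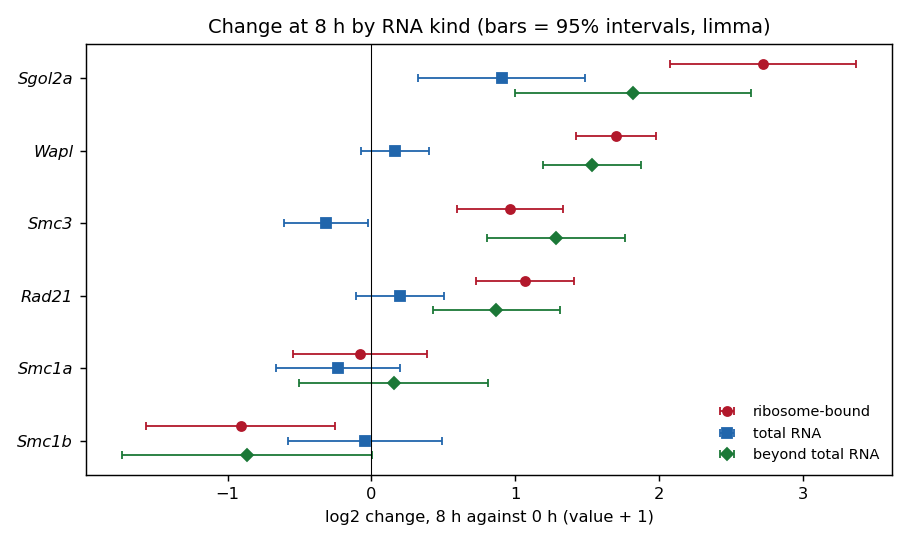
Log2 change at 8 h against 0 h (x axis) for each gene, on ribosomes, in total RNA and on ribosomes beyond total RNA, with limma 95% intervals as bars. For Sgol2a, Wapl, Smc3 and Rad21 the ribosome-bound intervals lie clear of the total RNA intervals, and for Smc1a all 3 estimates are near 0.

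Earlier, 2 of 6 passed beyond total RNA at 4 h, both upward (3.09% of all genes rose): Rad21 (0.99 ± 0.21, adjusted p = 0.00719) and Wapl (0.93 ± 0.17, adjusted p = 0.00151). At 6 h 3 of 6 passed, all upward (7.34%): Wapl (1.37), Rad21 (0.93) and Smc3 (0.85, adjusted p = 0.0177), while Sgol2a was at 1.18 ± 0.40 (adjusted p = 0.0549). At 2 h 0 of 6 passed (0.0953%), and 2 of 6, Rad21 and Wapl, had an unadjusted p under 0.05 in limma (10.4%). With libraries centred on their medians Sgol2a also passed at 6 h (1.23, adjusted p = 0.0446). The 4 h call of Rad21 was lost without the total RNA libraries of 0 h replicate 1 or 4 h replicate 2 (adjusted p = 0.0567 and 0.0566). The 6 h call of Smc3 was lost without replicate 1 at 0 h or 6 h of either RNA kind (adjusted p from 0.0653 to 0.122) and with the length and GC correction (0.61, adjusted p = 0.0863).

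Levels of different genes can be compared only per length, here as scaled CPM per kilobase of exon. On ribosomes at 0 h the order of means was Wapl (71.7), Smc3 (67.2), Rad21 (42.2), Smc1a (22.8), Smc1b (19.1) and Sgol2a (1.53). The libraries of Wapl (67.2 and 76.2) and Smc3 (58.7 and 75.7) overlapped, as did those of Smc1a (18.3 and 27.3) and Smc1b (25.6 and 12.6), so these neighbours did not differ beyond their spread. At 8 h Wapl stood at 233, Smc3 at 132, Rad21 at 88.3, Smc1a at 21.3, Sgol2a at 10.9 and Smc1b at 9.84, and the last pair overlapped. Sgol2a went from the 6.15th to the 56.0th percentile of 7532 genes by level per kilobase, and Wapl from the 93.0th to the 98.4th.

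Within each library, the ratio of Smc3 to Smc1a per kilobase on ribosomes was 3.21 and 2.77 at 0 h, 3.41 and 3.78 at 2 h, 4.42 and 4.21 at 4 h, 4.64 and 5.04 at 6 h, and 5.88 and 6.48 at 8 h. In total RNA the same ratio was 4.18 and 3.88 at 0 h and 3.55 and 4.09 at 8 h. The mRNA ratio of Wapl to Smc3 was 1.15 and 1.01 on ribosomes at 0 h and 2.01 and 1.58 at 8 h. In total RNA it was 1.01 and 1.09 at 0 h and 1.52 and 1.41 at 8 h. The ratios at 8 h lay above those at 0 h for both pairs on ribosomes. In total RNA this held for Wapl to Smc3 but not for Smc3 to Smc1a, whose pairs overlapped. Rad21 to Smc3 on ribosomes was 0.815 and 0.484 at 0 h and 0.732 and 0.622 at 8 h, which overlap. Smc1b to Smc1a was 1.40 and 0.462 at 0 h and 0.673 and 0.297 at 8 h, which also overlap. Sgol2a to Smc3 went from 0.0284 and 0.0185 to 0.0911 and 0.0763.

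**Figure D4:**
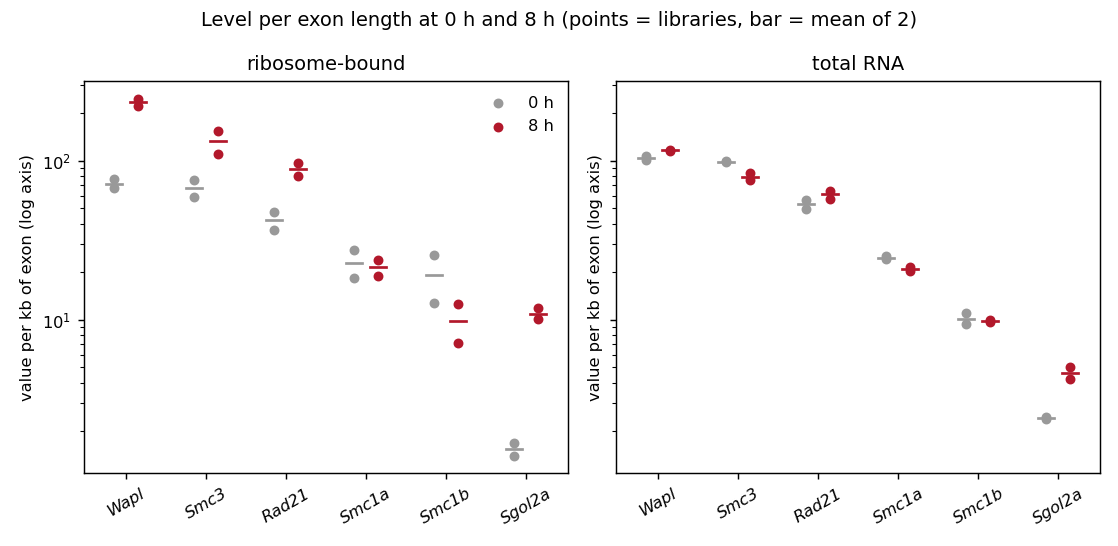
Scaled CPM per kilobase of exon (y axis, log scale) for each gene at 0 h and 8 h, for ribosome-bound mRNA and total RNA, with points as libraries and bars as means of 2. Wapl and Smc3 overlap on ribosomes at 0 h, and Sgol2a goes from 1.53 to 10.9 there.

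The rest of the cohesin pathway did not move in 1 direction on ribosomes. The pathway list held 35 other genes: subunits, loaders, ring regulators, acetyltransferases and a deacetylase, protectors and partners, centromere kinases and a cleavage group. Of these, 27 were measured on ribosomes, and at 8 h 9 rose, 8 fell and 10 did not pass. Their median was 0.23 against -0.06 for all genes (20.2% of all genes rose and 21.8% fell). Those not listed were Rad21l, Hdac8, Set, Ppp2ca, Ppp2cb, Ppp2r5d, Gsg2 and, on ribosomes, Ppp2r5b. Among other subunits, both measured Stag genes rose: Stag2 (1.39 ± 0.31, adjusted p = 0.00186) went from 22.0 and 22.5 to 61.9 and 57.6, and Stag1 (0.70 ± 0.27, adjusted p = 0.0433) from 53.5 and 53.6 to 69.8 and 110. Of the loaders, Mau2 fell (-1.20, adjusted p = 0.00578) and Nipbl did not pass (0.23).

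Cdca5 (sororin, which counteracts Wapl) fell by 0.75 ± 0.15, from 457 and 533 to 321 and 269 (adjusted p = 0.000612), while Pds5a (0.73, adjusted p = 0.0947) and Pds5b (0.16) did not pass. The acetyltransferase Esco1, which acetylates Smc3, rose (0.84, adjusted p = 0.00152), and Esco2 did not pass (-0.01). Of 8 measured protectors and partners, 1 rose, 2 fell and 5 did not pass, where 20.2% of all genes rose and 21.8% fell. The PP2A scaffold Ppp2r1a rose (0.71, adjusted p = 0.00539). Meikin, a meiosis-specific kinetochore protein that works with Plk1 and shugoshin, fell (-1.81, adjusted p = 0.000505), as did the PP2A regulatory subunit Ppp2r5a (-0.94, adjusted p = 0.0297). The other shugoshins did not pass: Sgol1 was at 0.46 (adjusted p = 0.0756) and Sgol2b at 0.13 (0.734).

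For the kinases and the cleavage group too, the shares of all genes at 8 h were 20.2% that rose and 21.8% that fell. Among 6 centromere kinases measured, Aurkc (1.63, adjusted p = 0.000129) and Aurkb (1.62, 0.00347) of the Aurora family and the casein kinase Csnk1e (0.50, 0.00832) rose. Plk1 (-0.67, 0.00144) and Csnk1d (-0.88, 0.010) fell, and Bub1 did not pass. In the cleavage group, separase, encoded by Espl1, rose by 0.49 (adjusted p = 0.0145) while its inhibitor securin, encoded by Pttg1, fell by 0.54 (0.00512). Cyclin B1, encoded by Ccnb1, rose by 2.41 (4.44e-09), from 103 and 88.0 to 474 and 549, and its kinase Cdk1 fell by 2.20 (9.04e-07).

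These 17 calls did not all hold with each library left out in turn. Stag1, Mau2, Ppp2r1a, Ppp2r5a, Aurkb, Csnk1d, Espl1 and Pttg1 each lost the call without at least 1 library. The other calls held with any 1 library left out. Stag1 reached 0.37 and Mau2 -0.75 without the 8 h library of replicate 2. Without the 0 h library of replicate 2 Espl1 reached 0.28. The share of calls over all genes that were lost in this way was not counted. These losses are therefore not shown to be particular to the list. Removing length and GC trends ended the calls of Stag1 (0.23), Stag2 (0.70, adjusted p = 0.0789), Esco1 (0.25), Plk1 (-0.19) and Csnk1d (-0.63). Other genes of the list gained a call, so that 14 were called, 6 of them upward. Of all 7543 genes 2830 were then called, 1325 of them upward. It also moved Cdca5 to -0.40, Ppp2r1a to 1.13 and Csnk1e to 0.84, which still passed. Fitting only the groups compared ended the calls of Stag1 and Espl1 (adjusted p = 0.0543 and 0.0548). In total RNA at 8 h 0 of 28 rose and 2 fell (0.947% of all genes rose and 3.02% fell), Cdca5 (-0.62, adjusted p = 0.0155) and Cdk1 (-1.24, 0.0115), each lost without any of 3 libraries. Cdca5 was also lost with length and GC trends removed (-0.46, adjusted p = 0.0561) and Cdk1 with only the groups compared (adjusted p = 0.0556). With length and GC trends removed 2 genes of the list were called in total RNA, 1 of them upward. Of all 7917 genes 299 were then called, 90 of them upward. Beyond total RNA, where 11.6% of all genes rose and 9.43% fell, 3 of 27 rose, Stag2 (1.37), Ppp2r1a (0.93) and Ccnb1 (2.23), and 4 of 27 fell, Mau2 (-1.69), Ppp2r5a (-1.22), Plk1 (-0.83) and Pttg1 (-0.96). Of these 7, Stag2, Ppp2r1a and Ppp2r5a were lost without at least 1 library, and removing length and GC trends ended those of Stag2 (0.85) and Plk1 (-0.47). Other genes gained a call with those trends removed, so that 7 were again called, 2 of them upward. Of all 7346 genes 1393 were then called, 736 of them upward. With only the groups compared Ppp2r1a and Ppp2r5a did not pass (adjusted p = 0.0590 and 0.0642).

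**Figure D5:**
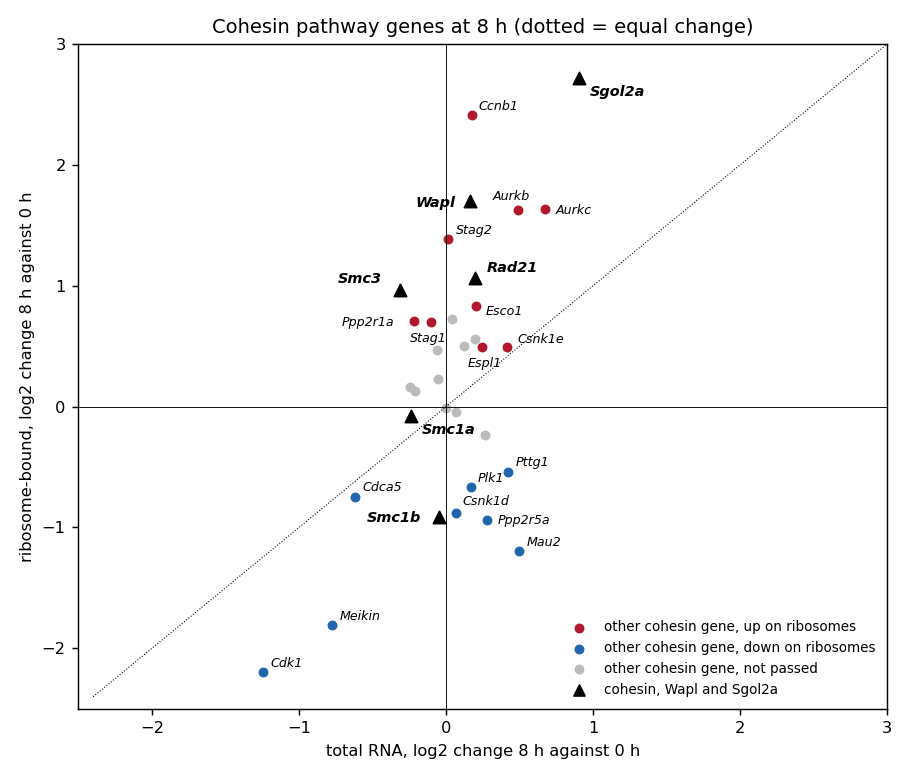
Log2 change at 8 h against 0 h in total RNA (x axis) and on ribosomes (y axis), on the log2(value + 1) scale. Points are 27 other genes of the pathway list, coloured by their call on ribosomes. The legend calls them other cohesin genes, although the list also holds kinases, phosphatase subunits and a cyclin. Triangles are the 6 genes described above, and the dotted line marks equal change. Sgol2a, Wapl, Rad21, Smc3 and Ccnb1 lie above the line, and Cdk1 and Meikin are low on both axes.

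As a description of their patterns, each gene was set beside the 3 named genes with mean value of at least 20 whose log2 values correlated best with it over the 10 ribosome-bound libraries (Pearson r, of 5323 genes). They share libraries and a common course over time. For Wapl these were Rbbp7 (0.998), Cnot6l (0.997) and the condensin gene Ncapg2 (0.995). For Sgol2a they were Dazl (0.995), Rttn (0.992) and Pan2 (0.990). For Smc3 they were Phf3 (0.975), Unc50 (0.973) and Phtf2 (0.973), and for Rad21 Cul1 (0.986), Ift81 (0.985) and Cmpk1 (0.979). The best for Smc1a was Zcchc7 at 0.910, and for Smc1b it was Mybl2 at 0.946.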

How the data were processed

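Ribosome-bound and total RNA were measured in 20 libraries, grouped by sample titles, whose letters A and B became replicates 1 and 2. What the authors deposited is a signal, scaled CPM per gene, in 1 table for each RNA kind. The submitters' processing notes list Trimmomatic 0.36, HISAT2, HTSeq, edgeR and limma among the tools, and mm10 as genome. Strandedness, poly(A) selection and the rule for listing genes were not stated in the labels. Total RNA samples carry a description that reads ribosome-bound, against their titles and the series design, which were followed. In each library 100% of values were whole multiples of 1 step within 0.01 of a read, from which the reads on listed genes were inferred.

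A pseudocount of 1 was added before log2, and genes needed a value of 1 in 2 libraries, which removed none. Limma 3.58.1 (R 4.3.3) fitted all times of a table together by empirical Bayes with a trend of variance on mean. Tests were two-sided, with Benjamini-Hochberg adjustment within each comparison. The fit was also run on simulated data with independent noise for each gene and changes added at 8 h only. Those settings are simpler than these libraries, and no result above rests on that run. Positions, lengths and 3′ UTRs came from GENCODE vM21 by gene ID, which found 8103 of 8114 IDs.

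Named were the 6 listed genes, every gene of the pathway list past the threshold at 8 h in any comparison, and the 3 best-correlated genes of each; Kctd18 was added because it overlaps Sgol2a, and pathway genes that did not pass are named as examples. Members and lists were chosen with earlier results of these data known. Alternatives were pseudocounts of 0.5 and 5, a filter at 10 or none, median centring, removal of length and GC trends, a replicate block, only the groups compared, and each library left out.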

Additional observations from a re-analysis of the deposited data

Results flagged for a closer look

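For some genes and times the ribosome-bound change and the total RNA change differed by the interaction test in limma. The difference for Wapl came to 0.93 (4 h), 1.37 (6 h) and 1.54 (8 h) on the log2 scale, and for Rad21 to 0.99, 0.93 and 0.87 at the same times. Smc3 passed with 0.85 (6 h) and 1.28 (8 h), and Sgol2a with 1.82 at 8 h. The calls of Rad21 at 4 h and Smc3 at 6 h depended on single libraries, as given above. With length and GC trends removed, Smc3 at 6 h did not pass in limma (0.61, adjusted p = 0.0863).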

How the results depend on the processing

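The 8 h rises of Wapl, Sgol2a, Smc3 and Rad21 kept their direction and call under all 18 alternatives on ribosomes and all 28 beyond total RNA, with the highest adjusted p at 0.0388 (Rad21 beyond total RNA). The smallest log2 values on ribosomes were 1.20, 2.19, 0.53 and 0.77 in that order, against 1.70, 2.72, 0.97 and 1.07 in the main fit. Each of these smallest values came with length and GC trends removed. Many of the alternatives could not move the 8 h estimate. Leaving out a library of 2 h, 4 h or 6 h, the filters, the replicate block and fitting only the groups compared change at most its standard error. With only the groups compared in the fit, Smc1b on ribosomes at 8 h was -0.91 but no longer passed, and total RNA at 8 h gave 164 called genes rather than 314, while fewer were also called on ribosomes at 2 h (38 against 111) and 4 h (572 against 1186) and beyond total RNA at 4 h (162 against 375). More were called from 2 h to 4 h (95 against 55), 4 h to 6 h (19 against 5) and 6 h to 8 h (92 against 52), and in total RNA at 4 h (2 against 0). With length and GC trends removed, Smc1b beyond total RNA at 8 h passed at -1.27, and Smc1a at 6 h on ribosomes changed sign to -0.041; genes called went to 27 from 2 h to 4 h, 15 from 4 h to 6 h and 20 beyond total RNA at 2 h (from 7). Centring on medians turned Smc3 at 2 h to 0.046. With each library left out, the ribosome-bound change of Smc1b ranged from -0.82 to 0.18 at 2 h, -0.99 to 0.013 at 4 h and -1.41 to -0.41 at 8 h. That of Smc1a ranged from -0.55 to 0.023 at 2 h, -0.36 to 0.22 at 4 h, -0.23 to 0.35 at 6 h and -0.37 to 0.21 at 8 h, and that of Smc3 from -0.18 to 0.18 at 2 h. At 8 h Smc1b ranged from -0.16 to 0.066 in total RNA and from -1.37 to -0.36 beyond it, Smc1a from -0.13 to 0.44 beyond it, and the genes called in total RNA from 52 to 414 (lower by over 1.5 times without either 0 h library or replicate 1 of 8 h). Genes called on ribosomes ranged from 2 to 90 from 2 h to 4 h, 0 to 34 from 4 h to 6 h and 3 to 125 from 6 h to 8 h, and beyond total RNA from 1 to 23 at 2 h, 151 to 426 at 4 h (375 with all), 524 to 931 at 6 h (860) and 1084 to 1612 at 8 h (1543). The cause of these changes was not tested. A library alone in its group was taken to vary like the others.

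A replicate block left the 8 h values of all 6 genes on their side of the threshold in each comparison and called 3081 genes on ribosomes at 8 h. It ended the calls of Wapl from 2 h to 4 h (adjusted p = 0.0513) and Stag1 (0.0541), and called 57 genes at 2 h rather than 111, 34 from 2 h to 4 h rather than 55, and 2 from 4 h to 6 h rather than 5. Deviations of libraries with the same letter correlated at -0.107 to 0.0487 within ribosome-bound mRNA, -0.0474 to 0.115 within total RNA and -0.0837 to 0.0363 between RNA kinds of a time, so the letters were not taken as pairs. With the longest transcript as length, Smc3 stood above Wapl per kilobase at 0 h. Sgol2a at 0 h was then at 2.17 rather than 1.53 on ribosomes and at 3.41 rather than 2.40 in total RNA. It was the lowest of the 6 genes at 0 h with either length. In total RNA at 0 h the levels of Smc1a, Smc3 and Wapl also moved by at least the SD of their replicates. The planned edgeR test on recovered reads was not run, because the values are not plain CPM.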
